A study of Mus musculus with 12 samples.

Results

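The genes described are the nuclear genes of the mitochondrial respiratory chain and of the ATP synthase that works beside it, as far as an Affymetrix Murine Genome array measured them. A gene was taken where the platform annotation gave its probe set a single symbol of the families Nduf (complex I, the subunit letters a, b, c, s and v), Sdha to Sdhd (complex II), Uqcr (complex III), Cox4 to Cox8 (complex IV) or Atp5 (complex V). By this rule 71 of 8252 genes with a symbol of their own were members. They comprised 31 genes of complex I, 4 of complex II, 7 of complex III, 15 of complex IV and 14 of complex V. The rule used names only, and no measured value chose a member, although a gene with several probe sets was represented by the one with the highest mean signal. Of 98 matching probe sets 71 were therefore used, 20 genes having more than 1, and 10 further probe sets that carry several symbols were left out. Symbols do not separate every assembly factor from a subunit. Ndufaf1 and Ndufaf4 help to assemble complex I, and Cox7a2l links complexes into supercomplexes, so these 3 members are not subunits in the strict sense. Nor does the rule reach every subunit. Cyc1, the cytochrome c1 of complex III, has a symbol outside these families and is not a member.

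The respiratory chain sits in the inner mitochondrial membrane. Complex I takes electrons from NADH and complex II, which is also the succinate dehydrogenase of the citric acid cycle, takes them from succinate. Complex III passes them from ubiquinol to cytochrome c, complex IV hands them to oxygen, and complex V uses the proton gradient so built to make ATP. Most subunits are encoded in the nucleus and are made by nearly all cells, whereas a few, above all in complex IV, have forms of their own in heart and skeletal muscle or in testis. In T cells, engagement of the T-cell receptor is known for a switch towards glycolysis, with mitochondrial mass growing later.

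The study asked how loss of MED23, a subunit of the Mediator coactivator that links transcription factors to RNA polymerase, alters the response of thymocytes to the T-cell receptor. Thymuses came from female F1 mice of a C57Bl/6 x 129Sv cross, aged 6 to 7 weeks. After a rest of 4 h, the thymocytes of each mouse spent 3 h either without stimulus (mock) or with plate-bound αCD3, an antibody against the CD3 chains of the receptor complex. One array per mouse and treatment gives 12 arrays from 6 mice, 2 of each genotype.

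The 3 genotypes were Med23+/+;Lck-Cre (called Lck-Cre), Med23flox/flox without Cre, and Med23flox/flox;Lck-Cre (called MED23 null). The first pair of genotypes served as controls, one carrying the transgene and the other the floxed alleles. The Lck promoter turns on Cre at a late double negative stage, so earlier thymocytes, cells that escaped recombination and non-T cells of the thymus keep MED23. Replicates are separate mice, whereas the mock and αCD3 arrays of a mouse hold cells of the same thymus. In such mixed cells, fewer cells of a type and less RNA per cell cannot be told apart.

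Values are MAS5 signals, a summary of the brightness of a probe set on a linear scale. Differences are given on the log2 scale after 50 was added to each signal, which understates the change of dim genes. All differences were fitted with limma over the 9478 probe sets whose mean signal reached 100 in at least 1 of the 6 conditions, and a gene passed where its Benjamini-Hochberg adjusted p was under 0.05. All 71 members reached that signal, but Cox7a1 and Cox8a did so in 1 condition only, the Lck-Cre mock arrays, so that a lower value elsewhere was partly set by the filter. Precision is limited by there being 2 mice per genotype.

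The Med23 probe set had signals of 207 to 268 on the MED23 null arrays and of 288 to 489 on the control arrays. No null array overlapped a control array, but the difference passed the test in neither treatment against either control, and whether its probes lie in the deleted part was not determined. The αCD3 array of Med23flox/flox replicate 1 stood apart, with a lower quartile of 85.2 where the other arrays had 50 to 58.2, and a mean correlation with the other arrays of 0.905 against 0.937 to 0.945. The 11 measured thymocyte markers summed to 91649 to 102424 on control arrays and to 83081 to 89050 on MED23 null arrays, and none was under 100 throughout. Rag1 and Cd8b1, with mean signals of 27282 and 19972, weighed most in this sum, and single markers went both ways between genotypes. The summed signal of 3 erythroid markers was 6167 to 16643 on control and 14815 to 38252 on MED23 null arrays. That of 4 NK cell markers, of which Ncr1 was under 100 on every array, was 1309 to 1923 and 3690 to 5239. Gzma, with a mean signal of 2170 beside 248 for Klrd1 and 64.3 for Klrk1, made up most of this sum. In mock cells the differences of null from Lck-Cre were 1.73 for Gzma, 0.07 for Klrd1 and 0.93 for Klrk1. After αCD3 they were 1.38, 0.24 and -0.18. Actin signal at the 3′ end over that at the 5′ end, a measure of RNA integrity, was 1.35 to 1.6 on control and 1.44 to 1.9 on MED23 null arrays.

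The promoters of respiratory chain genes are known for sites of the nuclear respiratory factors NRF1 and GABP, the latter an ETS family factor, and ETS factors of the ELK type are known partners of MED23. Windows of 300 bases, from 250 before to 50 after the annotated start, were available from RefSeq for 58 members on build GRCm38.p6. For some members the start of the window was not the first base of the gene as RefSeq gives it. Ndufaf1 and Atp5j were such cases among the members with ETS letters. All windows were searched on both strands for the letters CCGGAAG, a form of the ETS site. The consensus of NRF1, which reads the same on both strands, and that of YY1, a further factor of these promoters, were searched likewise. Exact matches alone were counted, so other forms of these sites were not seen. NRF1 letters were in 5 member promoters (8.62%, against 1.07% of 27025 genes and 2.17% of 5446 genes measured here). ETS letters were in 16 (27.6%, against 9.93% and 19.3%), and YY1 letters in 2 (3.45%, against 0.755% and 1.67%). Cox6a1 and Atp5k were the members with letters of both NRF1 and ETS, and their windows are shown with those of Sdhd, a membrane anchor of complex II, and Uqcr11, a small subunit of complex III, as examples of ETS letters in either orientation close to the start. All read 5′ to 3′ on the gene's strand and end at the last base before the start, and capitals mark the ETS letters, CTTCCGG being CCGGAAG on the other strand.
Cox6a1, chr5:115348959-115349133, minus strand: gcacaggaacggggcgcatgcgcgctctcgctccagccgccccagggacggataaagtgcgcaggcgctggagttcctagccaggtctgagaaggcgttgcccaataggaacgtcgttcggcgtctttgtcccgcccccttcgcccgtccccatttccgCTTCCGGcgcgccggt
Atp5k, chr5:108434400-108434469, minus strand: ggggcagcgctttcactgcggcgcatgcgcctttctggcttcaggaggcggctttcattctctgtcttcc
Sdhd, chr9:50603850-50603919, minus strand: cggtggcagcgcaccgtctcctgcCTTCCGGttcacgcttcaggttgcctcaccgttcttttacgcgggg
Uqcr11, chr10:80406822-80406891, minus strand: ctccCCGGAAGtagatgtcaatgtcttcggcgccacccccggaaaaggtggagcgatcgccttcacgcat
In Cox6a1 the NRF1 match, in lower case, ran from 162 to 153 bases and the ETS letters from 16 to 10 bases before the start. In Atp5k the NRF1 match ran from 50 to 41 bases before the start, and its ETS letters lay after the start, outside the stretch shown. A match of letters is a description and not a bound site.

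Respiratory chain genes were measured well above the filter and varied little between arrays. Of the 71 members, 62 (87.3%) had a signal of at least 100 on all 12 arrays, compared with 65.2% of all probe sets tested. The highest signal of a member was a median of 1.56 times its lowest over the 12 arrays. Over all probe sets the median was 2.3, a figure to be read with the lower signals of many other genes in view. Each member was represented by its brightest probe set, whereas all probe sets tested were not so chosen. Both comparisons with all probe sets were thus partly set by that choice. Complex III had the narrowest range, with a median of 1.41, and the medians of the others lay between 1.53 and 1.62. The narrowest single ranges belonged to Atp5l, subunit g of the ATP synthase, with signals from 3712 to 4208, and to Uqcrh, the hinge protein of complex III, from 4258 to 4920. Cox5b, a nuclear subunit of complex IV, spanned 2279 to 2670 and Ndufa9, an accessory subunit of complex I, 2263 to 2648. Atp5a1, the alpha subunit of the catalytic head, had signals of 7168 to 9104 and Ndufb5, a membrane arm subunit of complex I, of 4702 to 5619. At the other end, the muscle isoform Cox6a2 ranged 9.23-fold, from 37.5 to 346, and Atp5k, subunit e of the ATP synthase, 7.60-fold, from 43.0 to 327. The 9 members with a signal under 100 on some array were Ndufa12, Ndufaf4, Ndufs4, Cox5a, Cox6a2, Cox7a1, Cox8a, Atp5j2 and Atp5k.

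**Figure D1:**
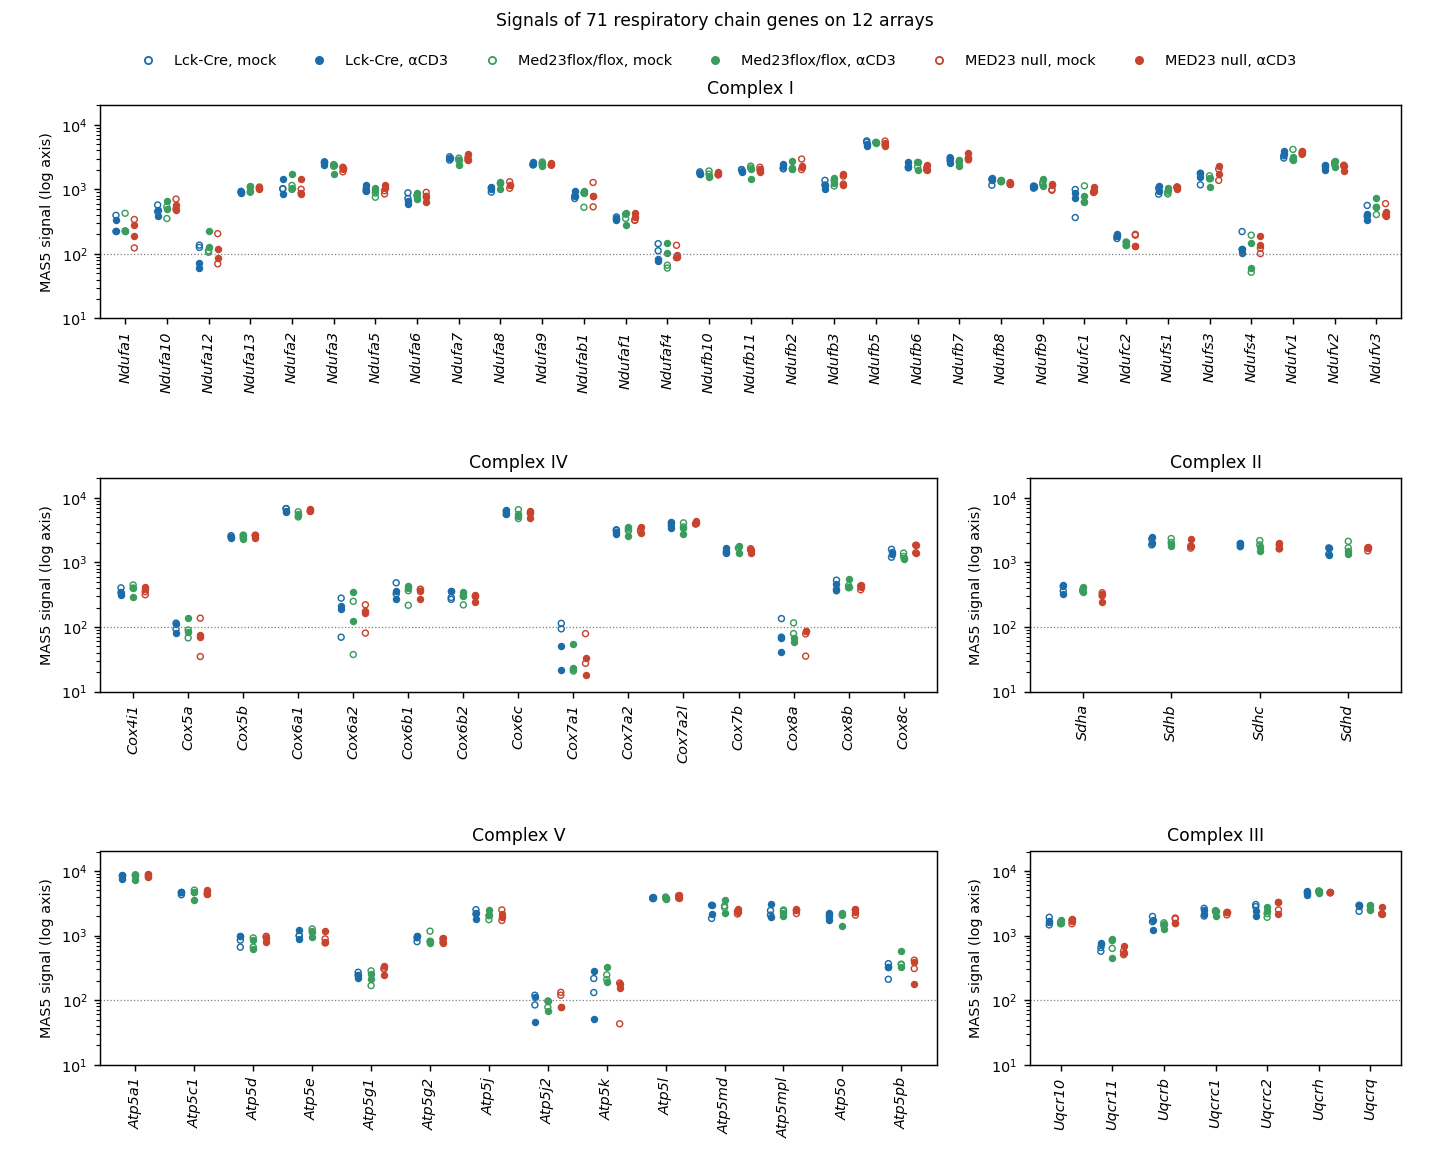
MAS5 signal (log axis) of each of the 71 members on the 12 arrays, by complex, with open points for mock, filled points for αCD3 and a colour for each genotype; the dotted line is a signal of 100. The points of most genes lie close together in all genotypes and treatments, and the widest spreads, those of Cox6a2 and Atp5k, belong to genes with points under the line. Different probe sets cannot be ranked against each other by signal.

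The first comparison asked whether 3 h of αCD3 altered these genes in control thymocytes, within each mouse. No member passed the test (0 of 71, against 0.148% of all probe sets, 14 of 9478), and the smallest adjusted p of a member was 0.509 in limma. At an unadjusted p under 0.05 there was 1 member, Cox8a, where 7.78% of all probe sets had such a p. The median difference of the members was -0.03, beside 0.00 over all probe sets. The 95% confidence interval of the difference stayed within 2-fold in either direction for 69 of 71 members (97.2%), the exceptions being Cox6a2 and Atp5k. The share over all probe sets, which were not chosen as the brightest of a gene, was 81.5%. For a typical member the interval reached 0.34 to each side on the log2 scale, so smaller differences lay within the error.

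By complex, the median differences after αCD3 in control mice were 0.00 for complex I, -0.10 for II, -0.03 for III, and -0.05 for both IV and V. All 4 genes of complex II had a difference at or below 0, but none had the same sign in every mouse. Over all members, 4 were higher and 4 lower after αCD3 in each of the 4 control mice (5.63% each), where 9.16% of all probe sets were higher and 8.68% lower. Higher were Ndufab1, the acyl carrier protein of complex I, Ndufb2, Ndufs1, the largest iron-sulfur subunit, and Cox6b2, a testis form. Lower were Ndufb10, Ndufb11, Cox4i1 and Cox8a. Seen by mouse, the median over the members was -0.01 in both Lck-Cre mice, -0.15 in Med23flox/flox replicate 1 and 0.03 in replicate 2, where all probe sets had medians of -0.02, -0.01, 0.04 and 0.00. The lowest of these values came from the mouse whose αCD3 array stood apart, and without that mouse the median difference of the members in control mice was 0.01.

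Cox8a, the general form of the smallest complex IV subunit, had the lowest test statistic. Its mock signals were 135 and 69.7 in Lck-Cre and 116 and 79.1 in Med23flox/flox mice, and the αCD3 signals of the same mice were 67.7, 41.4, 67.8 and 58.1. The αCD3 signal was below the mock signal in every control mouse, but all of these signals lie around or under the filter of 100. The log2 difference was -0.45 (SE 0.14, adjusted p = 0.509). Cox4i1, the general form of the subunit 4 that every complex IV needs, had mock signals of 404, 343, 448 and 401 and αCD3 signals of 341, 309, 292 and 398 in the same order of mice. Its difference was -0.22 (SE 0.13, adjusted p = 0.725), and a second, dimmer probe set of Cox4i1 had 0.13. Without Med23flox/flox replicate 1 the difference of the one used was -0.12. Ndufb11, a membrane arm subunit of complex I, had a difference of -0.23, which was -0.09 without that mouse.

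On the side of higher values, Cox6a2 had a difference of 0.52 (SE 0.31, adjusted p = 0.720), but its signal went from 280 to 191 in Lck-Cre replicate 1 and from 69.5 to 214 in replicate 2, so the mice of 1 genotype went opposite ways. Cox6b2 had mock signals of 287, 268, 220 and 303 and αCD3 signals of 355, 364, 349 and 306 in the 4 control mice, a difference of 0.30 (SE 0.14, adjusted p = 0.654). Ndufs1 had mock signals of 842, 1035, 847 and 905 and αCD3 signals of 939, 1135, 1059 and 978. It was thus 1.08 to 1.25 times higher after αCD3 in each mouse, a difference of 0.17 (SE 0.11, adjusted p = 0.735). None of the 3 differences passed against the spread of the within-mouse differences.

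In MED23 null thymocytes, αCD3 likewise moved no member past the test (0 of 71, against 0.0317% of all probe sets, 3 of 9478), and the smallest adjusted p of a member was 0.870. At an unadjusted p under 0.05 there were 2 members, Ndufc2 and Atp5j2, and 5.36% of all probe sets. The member median was 0.04, beside -0.02 over all probe sets, and the interval stayed within 2-fold for 63 of 71. The median by complex was 0.04 for I, 0.09 for II and III, -0.02 for IV and 0.02 for V. In both null mice 23 members were higher (32.4%, against 23.2% of all probe sets) and 14 lower (19.7%, against 26.3%). In complex III, 5 of the 7 genes were among the higher ones, namely Uqcr10, Uqcr11, Uqcrc1, Uqcrh and Uqcrq, with differences of 0.05 to 0.17, and Uqcrb was lower in both mice. The null mice differed between themselves, with member medians of -0.01 in replicate 1 and 0.11 in replicate 2, where all probe sets had 0.00 and -0.03.

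Ndufc2, a small membrane subunit of complex I, had the lowest statistic in the null mice. Its signals went from 195 to 134 in replicate 1 and from 201 to 133 in replicate 2, which is a difference of -0.44 (SE 0.16, adjusted p = 0.870). In control mice the same probe set had mock signals of 173, 187, 135 and 153 and αCD3 signals of 190, 207, 151 and 139. The values of the null mice after αCD3 thus lay just under those of the controls, whereas their mock values lay just above them. Atp5j2, subunit f of the ATP synthase, had signals of 132 and 119 in mock and 77.0 and 77.6 in αCD3 cells of the null mice, a difference of -0.46 (SE 0.18, adjusted p = 0.903), with its αCD3 signals under 100. Ndufa5, Ndufb9 and Cox8a had the highest statistics, with differences of 0.29, 0.26 and 0.38 and an adjusted p of 0.999 each.

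**Figure D2:**
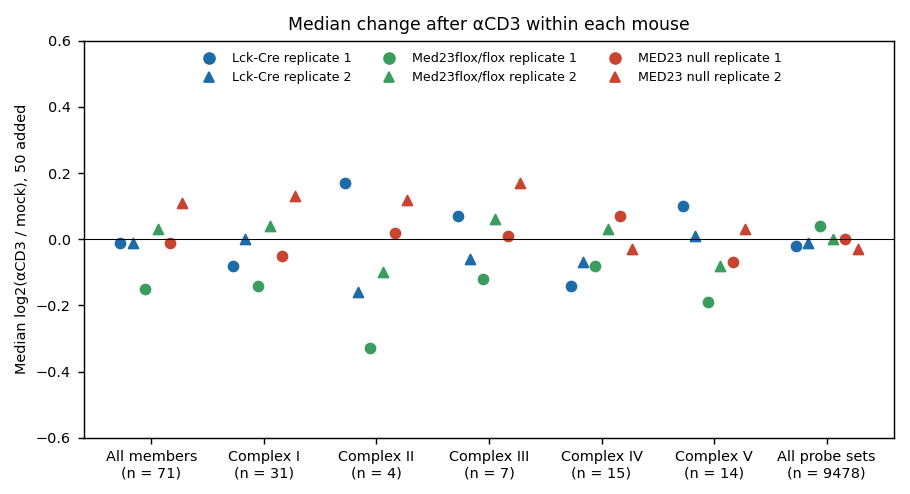
Median over the members of the within-mouse log2(αCD3/mock), with 50 added to each signal, for all 71 members, for each complex and for all 9478 probe sets, with 1 point per mouse (circles replicate 1, triangles replicate 2, colours the genotypes). Member medians lie between -0.15 and 0.11 and show no separation of MED23 null from control mice; Med23flox/flox replicate 1, whose αCD3 array stands apart, is the lowest in complexes I, II, III and V.

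The difference in induction between genotypes was tested directly, as the mean of the 2 null mice less the mean of the 4 control mice. No member passed (0 of 71, against 0% of all probe sets), the smallest adjusted p being 0.908. At an unadjusted p under 0.05 there were 2 members, Cox8a and Ndufc2, and 5.13% of all probe sets. The member median was 0.05, beside -0.02 over all probe sets, but it turned to -0.01 without MED23 null replicate 2 and was 0.12 without MED23 null replicate 1, 0.09 without Lck-Cre replicate 2 and 0.03 without Lck-Cre replicate 1 or without Med23flox/flox replicate 1. Both null mice lay above all 4 control mice for 7 members, compared with 6.06% of all probe sets, and below them for 3, compared with 7.42%. The medians by complex were 0.01 for I, 0.25 for II, 0.09 for III, -0.02 for IV and 0.04 for V. The interval of this difference was wider, reaching 0.59 to each side for a typical member, and stayed within 2-fold for 54 of 71.

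Cox8a stood at the upper end of this comparison. Its signal went from 78.3 to 87.6 and from 35.4 to 85.5 in the null mice, against the lower αCD3 values of all control mice given above. The difference was 0.83 (SE 0.25, 95% interval 0.24 to 1.42), but it did not pass over all probe sets (adjusted p = 0.908), and 2 of its 12 signals reached 100. Cox4i1 followed with 0.45 (SE 0.23, adjusted p = 0.992). Its signals in the null mice were 353 and 316 in mock and 388 and 410 in αCD3 cells. A second, dimmer probe set of Cox4i1 had the opposite sign, -0.25. Ndufs4, an accessory subunit of complex I, had 0.64 (SE 0.31, adjusted p = 0.971), from signals of 52.0 to 222. At the lower end were Ndufc2 with -0.49 (SE 0.19, adjusted p = 0.957), Atp5pb, a part of the peripheral stalk of the ATP synthase, with -0.59 (SE 0.33, adjusted p = 1.000), and Cox6b2 with -0.45 (SE 0.24, adjusted p = 0.998). For Cox6b2 the null mice went from 297 to 299 and from 308 to 241.

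Split by the ETS letters in the promoter, the 16 members that hold them had a median difference in induction of 0.22, with 13 above 0, and the 42 that lack them had -0.01, with 21 above 0. Over all measured probe sets with a promoter the medians were -0.01 with the letters (n = 1322) and -0.02 without (n = 5385), with 48.9% and 47.5% above 0. The 16 members had a median of -0.06 in control and 0.13 in null mice. By mouse it was 0.10, -0.07, -0.17 and 0.01 in the Lck-Cre and Med23flox/flox mice and 0.03 and 0.26 in the null mice, so the groups overlapped. Without Med23flox/flox replicate 1 the median difference was 0.15, with 11 of the 16 above 0. No test was made of this split.

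The next question was whether MED23 null and control thymocytes differed without stimulus, each control genotype being taken in turn. Against Lck-Cre, no member passed (0 of 71, against 0% of all probe sets, smallest adjusted p = 0.710), and no member had an unadjusted p under 0.05, where 7.3% of all probe sets did. The member median was -0.02, beside 0.01 over all probe sets. Both null arrays lay above both Lck-Cre arrays for 10 members (14.1%, against 19.8% of all probe sets) and below for 12 (16.9%, against 18.6%). Against Med23flox/flox, again no member passed (0 of 71, against 0%, smallest adjusted p = 0.583), and Atp5e alone had an unadjusted p under 0.05, where 7.34% of all probe sets did. The median was 0.02, beside 0.01. Null arrays lay above for 13 members (18.3%, against 19.6% of all probe sets) and below for 23 (32.4%, against 17.8%). The null mock arrays also had higher NK sums (3724 to 5239, against 1309 to 1782), made up mostly of Gzma. Erythroid sums were mostly higher (14815 to 37091, against 6203 to 16643) and thymocyte marker sums lower (83081 to 89050, against 96992 to 102424). Of the thymocyte markers, Rag1 and Cd8b1 were lower in null than in Lck-Cre cells (-0.30 and -0.44). So were Cd2 (-0.81), Rag2 (-0.44), Cd3g (-0.20) and Cd3d (-0.15). Cd4 and Thy1 were higher (0.27 and 0.24), and Cd3e, Ptcra and Cd8a had 0.06, 0.06 and 0.03. Against Med23flox/flox, Rag1, Cd8b1, Cd4 and Thy1 had -0.41, -0.42, 0.32 and 0.04. All other measured thymocyte markers were lower there, from -0.46 for Rag2 to -0.04 for Cd3d. The part of these sums in the values was not tested. The sum of 7 myeloid markers was 3009 to 3318 on null, 1834 to 2045 on Med23flox/flox and 2122 to 3463 on Lck-Cre mock arrays, so it was higher than in Med23flox/flox and overlapped Lck-Cre, and its part was not tested either. For a typical member the interval of a mock difference between genotypes reached 0.48 to each side.

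In mock-treated cells, complex II was the complex whose genes were all lower in null than in Med23flox/flox mice. The flavoprotein subunit Sdha had signals of 362 and 425 in Lck-Cre, 361 and 376 in Med23flox/flox and 339 and 304 in null mice. The iron-sulfur subunit Sdhb had 1869 and 2294, then 2344 and 2039, then 1797 and 1667. Both null arrays were below all 4 control arrays for these genes. Of all probe sets, 18.6% were below both Lck-Cre arrays and 17.8% below both Med23flox/flox arrays. The share below all 4 was not counted. The membrane anchor Sdhc had 1753 and 1955, then 2181 and 1872, then 1620 and 1863. The other anchor Sdhd had 1343 and 1679, then 1681 and 2122, then 1677 and 1507. For both anchors the null arrays were below both Med23flox/flox arrays but overlapped the Lck-Cre arrays. The differences from Med23flox/flox were -0.17, -0.33, -0.21 and -0.24 for Sdha, Sdhb, Sdhc and Sdhd, with a median of -0.23, and those from Lck-Cre were -0.26, -0.25, -0.09 and 0.08, with a median of -0.17. None passed the test, with adjusted p of 0.761 or higher against Med23flox/flox and 0.854 or higher against Lck-Cre. Between the control genotypes the 4 genes also lay on 1 side after αCD3, at or below 0 in Med23flox/flox less Lck-Cre, with a median of -0.14. After αCD3 the side was not kept, since 3 of the 4 genes were above 0 in null less Med23flox/flox, with a median of 0.16 and differences of 0.13, 0.19 and 0.25 for Sdhb, Sdhc and Sdhd, and 1 was above 0 in null less Lck-Cre, with a median of -0.09. Sdha was the exception, with both null arrays below all control arrays after αCD3. Its signals were 243 and 323 in null mice and 444, 324, 410 and 350 in control mice. The difference of Sdha was -0.38 against each control genotype (SE 0.25), with an adjusted p of 0.999 against Lck-Cre. After αCD3, 18.5% of all probe sets were below both Lck-Cre arrays and 20.2% below both Med23flox/flox arrays.

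In the other complexes the mock differences went both ways. Against Med23flox/flox the medians were 0.06 for complex I, -0.08 for III, 0.05 for IV and -0.02 for V, and against Lck-Cre they were 0.01, -0.05, -0.05 and 0.02. Atp5e, the small epsilon subunit of the ATP synthase, had mock signals of 994 and 1003 in Lck-Cre, 1153 and 1266 in Med23flox/flox and 887 and 768 in null mice. The 3 genotypes did not overlap, with the null lowest, and the share of all probe sets with such an order was not counted. The difference from Med23flox/flox was -0.52 (SE 0.18, 95% interval -0.96 to -0.09, adjusted p = 0.583) and that from Lck-Cre -0.26. Uqcrc2, a core protein of complex III, had 2797 and 3022, then 1915 and 2179, then 3248 and 2499, so that the Med23flox/flox arrays were the low ones. Its difference of null from Med23flox/flox was 0.47 (SE 0.21, adjusted p = 0.692), whereas that from Lck-Cre was -0.03. Atp5k had the widest gap, -0.90 from Med23flox/flox (SE 0.46, adjusted p = 0.727), resting on signals of 184 and 43.0 in the null mice. The other named members of this comparison were Ndufaf4 (0.49), Ndufc2 (0.35) and Ndufb9 (-0.33). Against Lck-Cre, Cox7a1 (-0.62), Ndufa3 (-0.37) and Cox8a (-0.51) had the lowest statistics and Atp5d (0.34), Ndufa8 (0.25) and Ndufa13 (0.21) the highest, with adjusted p of 0.710 to 0.879.

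After αCD3 the same comparisons were made. Against Lck-Cre no member passed (0 of 71, against 0% of all probe sets, smallest adjusted p = 0.999), none had an unadjusted p under 0.05, where 4.83% of all probe sets did, and the member median was 0.04, beside 0.00. Null arrays lay above for 19 members (26.8%, against 17.8%) and below for 11 (15.5%, against 18.5%). Of the 19, 11 were genes of complex I, which holds 31 of the 71 members. They were 35.5% of its genes, against 17.8% of all probe sets. Against Med23flox/flox no member passed (0 of 71, against 0%, smallest adjusted p = 0.655), none had an unadjusted p under 0.05, where 7.72% did, and the median was 0.03, beside -0.03. Null arrays lay above for 15 (21.1%, against 16.2%) and below for 11 (15.5%, against 20.2%). Without the Med23flox/flox αCD3 array that stood apart, the median was -0.02. On the same arrays the null mice had NK sums, made up mostly of Gzma, of 3690 to 4542 against 1572 to 1923. Their erythroid sums were 15712 to 38252 against 6167 to 15300, and their actin ratios 1.61 and 1.9 against 1.35 to 1.41. Myeloid sums were 2462 to 3101 against 1346 to 3093. The part of these in the values was not tested. The interval of a typical αCD3 difference between genotypes reached 0.56 to each side.

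Several of the largest αCD3 differences rested on the array that stood apart. Ndufs3, a core subunit of complex I, had αCD3 signals of 1069 on that array and 1489 in the other Med23flox/flox mouse, of 2288 and 1698 in the null and of 1563 and 1819 in the Lck-Cre mice. The difference of null from Med23flox/flox was 0.62 (SE 0.27, adjusted p = 0.655), and without that array it was 0.39. Ndufv3, an accessory subunit at the NADH-binding end, had 741 on that array, 540 in the other Med23flox/flox mouse, 449 and 380 in the null and 340 and 411 in the Lck-Cre mice. Its difference was -0.56 (SE 0.25, adjusted p = 0.655), or -0.35 without the array. Ndufa12, an accessory subunit close by in the matrix arm, had 224 on that array and 129 in the other Med23flox/flox mouse, but 87.0 and 121 in null and 71.3 and 60.3 in Lck-Cre mice. Its difference of null from Med23flox/flox was -0.53 and that from Lck-Cre 0.41 (SE 0.28 each), and the former was -0.22 without the array. Among the remaining named members, Ndufc1 had 0.47 against Med23flox/flox (0.32 without the array), Cox8c 0.44 and Atp5pb -0.63. Against Lck-Cre the highest statistics were those of Cox8a (0.40), Ndufb3 (0.38) and Ndufa12, and the lowest those of Ndufc2 (-0.44), Cox6b2 (-0.36) and Sdha (-0.38).

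The control genotypes, which differ by the Cre transgene and the floxed alleles, were also compared with each other. In mock cells no member passed between them (0 of 71, against 0% of all probe sets, smallest adjusted p = 0.625). At an unadjusted p under 0.05 there were 2 members, Cox7a1 and Ndufaf4, and 5.64% of all probe sets. The member median was 0.00, beside -0.01. The Med23flox/flox arrays lay above the Lck-Cre arrays for 9 members (12.7%, against 16.6% of all probe sets) and below for 13 (18.3%, against 18%). In αCD3 cells no member passed either (0 of 71, against 0%, smallest adjusted p = 0.752), with Ndufa12 and Ndufv3 at an unadjusted p under 0.05, where 5.93% of all probe sets had one. There 13 lay above (18.3%, against 19.3%) and 15 below (21.1%, against 16.3%), with a median of -0.01, beside 0.02.

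The members with the smallest unadjusted p were Cox7a1 in mock and Ndufa12 in αCD3 cells. Cox7a1, a heart and skeletal muscle form that reached the filter through the Lck-Cre mock arrays alone, had mock signals of 93.7 and 114 in Lck-Cre, 20.8 and 22 in Med23flox/flox and 78.9 and 27.4 in null mice, and only 1 of its 12 signals reached 100. The difference of Med23flox/flox from Lck-Cre was -1.11 (SE 0.28, 95% interval -1.79 to -0.43, adjusted p = 0.625), a fold of 0.464 on this scale. Its αCD3 signals were 51.6 and 21.4 in Lck-Cre, 54.4 and 23.6 in Med23flox/flox and 33.0 and 18.1 in null mice, without any separation. The αCD3 difference of Ndufa12 between the same genotypes was 0.94 (SE 0.28, adjusted p = 0.752), and 0.63 without the array that stood apart. Ndufaf4 had mock signals of 144 and 112 in Lck-Cre, 66.9 and 60.4 in Med23flox/flox and 136 and 87.3 in null mice, a difference of -0.64 between the controls (SE 0.22, adjusted p = 0.825). After αCD3 the order was turned, with 77.7 and 82.5 in Lck-Cre and 149 and 104 in Med23flox/flox mice. Uqcrc2 (-0.50), Sdhd (0.32), Ndufa8 (0.32) and Atp5e (0.26) were the other members at the ends of the mock comparison, and Ndufv3 (0.69), Ndufaf4 (0.43), Atp5d (-0.42), Ndufc2 (-0.35) and Ndufv1 (-0.32) of the αCD3 comparison. Ndufv3 had 0.48 without the array that stood apart.

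**Figure D3:**
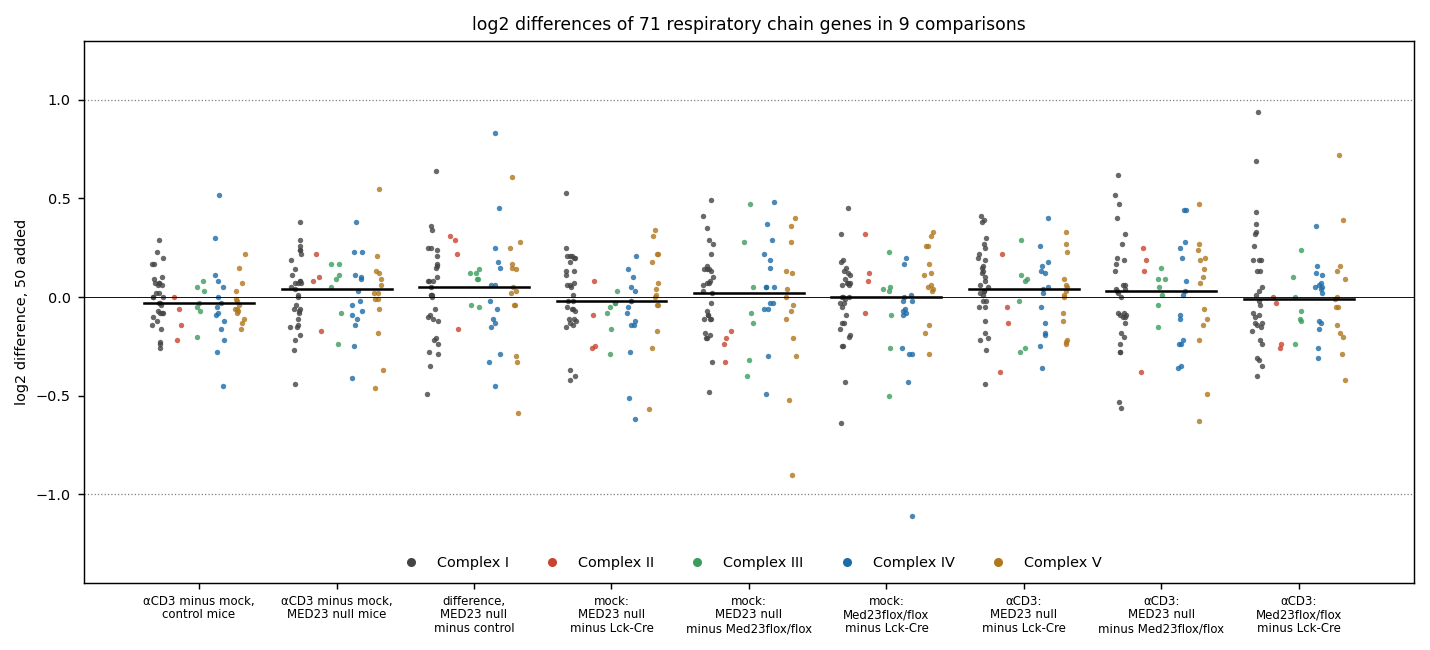
log2 differences (50 added to each signal) of the 71 members in the 9 comparisons, with 1 point per gene coloured by complex, a bar at the median over all members, and dotted lines at a 2-fold difference. All medians lie between -0.03 and 0.05, and the 4 points farthest from 0 are Cox7a1 (-1.11), Ndufa12 (0.94), Atp5k (-0.90) and Cox8a (0.83).

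**Figure D4:**
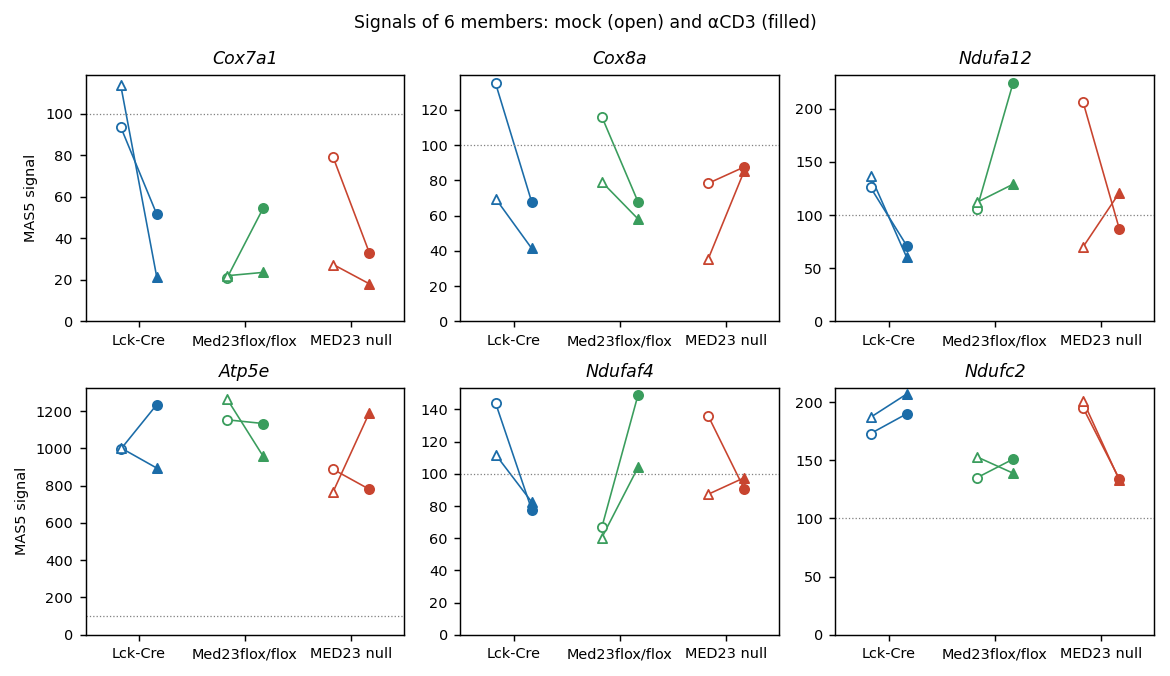
MAS5 signals (linear axis from 0) of the 6 members with the smallest unadjusted p in any comparison, chosen after their values were seen, with mock (open) joined to αCD3 (filled) of the same mouse, circles for replicate 1 and triangles for replicate 2; the dotted line is a signal of 100. Cox7a1, Cox8a, Ndufa12 and Ndufaf4 lie around that line, and none of the 6 passed the test after adjustment.

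Tissue isoform families were followed as a whole. In complex IV the array measured general and restricted forms of several subunits. Of the pair Cox6a1 (general) and Cox6a2 (muscle), Cox6a1 had signals of 5064 to 6813 on the 12 arrays and no difference in any comparison beyond 0.29 in size. Cox6b1 (general) had 217 to 484 and Cox6b2 (testis) 220 to 364. Cox7a2 (general) had 2566 to 3505, with differences of -0.12 to 0.16, whereas Cox7a1 had 18.1 to 114. Of the subunit 8 forms, Cox8a had 35.4 to 135, Cox8b (muscle and brown fat) 364 to 546 and Cox8c (testis) 1144 to 1851. Levels of different probe sets cannot be set against each other, so these ranges say nothing about which form thymocytes hold more of. The summed signal of 5 muscle and brown fat markers was 593 to 739 on control and 597 to 963 on null mock arrays. In complex V, the proteolipid genes Atp5g1 and Atp5g2, which encode the same mature subunit c, had signals of 168 to 339 and of 762 to 1168, and neither passed in any comparison.

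Second probe sets of the same gene were available for 13 probe sets of 10 members that also reached the signal filter. They had the same sign as the one used in 7 or 8 of 13 cases in each of the 9 comparisons, and the largest gap between a used and a second probe set was 1.05. Atp5d, the delta subunit of the ATP synthase, had 4 of them, with inductions in control mice from -0.18 to 0.84 beside 0.15 for the one used. For Ndufa3 a second probe set with a mean signal of 200 had an induction of 1.09 in null mice, where the one used, with a mean of 2283, had 0.05. Of the 71 probe sets used, 53 are plain sets and 18 carry a suffix for probes shared with similar sequences or chosen with relaxed rules, so the latter may read related genes.

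Genes that feed the chain or serve it did not pass the test either. The electron carrier list below includes Cyc1, a complex III subunit that the rule leaves out. The list of assembly factors includes Ndufaf1, which is also a member. Of 9 measured electron carriers and other quinone reducers, 7 assembly and expression factors and 16 genes of pyruvate dehydrogenase and the citric acid cycle, none passed in any comparison. Neither did any of 15 glycolysis genes, 13 carriers and pores or 9 genes of mitochondrial transcription and biogenesis. The median induction in control mice was 0.07 for glycolysis, -0.07 for carriers and pores, and between -0.03 and 0.03 for the other lists. Single genes lay far from these medians. The dim Hk2 of glycolysis had 1.06 in control mice (SE 0.25, limma adjusted p = 0.269) and 0.07 in null mice. Pprc1, of the biogenesis list and also dim, had 0.95 (SE 0.17, adjusted p = 0.155) and 1.12 (SE 0.24, adjusted p = 0.548). The lowest value in control mice was -0.34, for Etfdh. The median difference in induction was lowest for glycolysis, with -0.10 and 11 of 15 genes below 0, and highest for transcription and biogenesis, with 0.13 and 8 of 9 above 0. For the respiratory chain genes it was 0.05, with 42 of 71 above 0, and over all probe sets -0.02, with 47.7% above 0.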

How the data were processed

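RNA of total thymocytes was hybridized to 12 arrays, 1 per mouse and treatment. The intensities analysed are linear MAS5 signals per probe set, which the authors computed before they were deposited; the version of MAS5 is not given in the sources used here. The study names Spotfire as its analysis software, and how arrays were scaled is not given in the sources used here. Means trimmed by 2% at each end were alike on the 12 arrays, and scaling to them changed no array by over 0.00603%, so that a shift of all signals on an array could not be seen.

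The arrays hold 12488 probe sets. Control sequences (66) were removed, and 9478 reached a mean signal of 100 in at least 1 of 6 conditions. With 50 added, log2 signals were fitted with limma 3.58.1 in R 4.3.3 (lmFit, eBayes, Benjamini-Hochberg adjustment over all 9478, threshold 0.05). Induction used the 6 within-mouse differences (αCD3 minus mock) with a mean for control and one for null and 4 residual degrees of freedom, and genotypes were fitted within each treatment with 3. The arrays of a mouse are paired by the mouse named in the labels, and their deviations from the group means correlated at 0.094, 0.149 and 0.061 in Lck-Cre, Med23flox/flox and MED23 null mice. A description label that 2 arrays of different mice share was not used, and groups come from the titles. The fits were tested on simulated data, in which most 2-fold changes between null and Lck-Cre arrays were not recovered. Many 2-fold changes of induction in control mice were missed as well. A count of 0 in these comparisons therefore does not exclude changes of that size. Induction in null mice and the difference in induction were not simulated. Summaries and figures used Python 3.11.15 with pandas 2.3.3, numpy 2.4.6, scipy 1.17.1 and matplotlib 3.10.9.

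Members, gene lists and motifs were chosen with earlier results of these data known. Symbols come from the platform annotation, in which 10833 probe sets have 1 symbol and 396 several, and all 71 members matched a RefSeq gene by Entrez ID. Members named are those with the 3 highest and 3 lowest limma statistics of each comparison, the highest and lowest mean signal of each complex, complex II and the isoform families. Further members are named in lists of all that share a property, or after their values were seen. Alternatives were other pseudocounts, filters, scalings and blocks, a variance trend, a mean over probe sets, either control alone, both as 1 group, and each mouse left out. Plain probe sets only, and a list without the 3 assembly factors, were added after seeing the data. Flow cytometry, quantitative PCR and fibroblasts of the study were not analysed here.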

Additional observations from a re-analysis of the deposited data

Results flagged for a closer look

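Over all 71 members, 2 had a control mouse whose induction was far from those of the other 3, where chance alone flags about 1 in 20 groups, so the count is not above that share. Ndufb11 had a log2 induction of -0.65 in Med23flox/flox replicate 1, the mouse whose αCD3 array stood apart, and of -0.11 to -0.07 in the other 3. Ndufc2 had -0.11 in Med23flox/flox replicate 2 and 0.11 to 0.12 in the other 3.

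For 4 members of 71, every control mouse moved one way after αCD3 and both MED23 null mice the other, as did 3.47% of all probe sets. Cox8a was lower in all 4 control and higher in both null mice, with a difference in induction of 0.83 (limma adjusted p = 0.908). Cox4i1 showed the same directions, with 0.45 (adjusted p = 0.992), and so did Ndufb10, with 0.21 (adjusted p = 1). Ndufs1 was higher in the control and lower in the null mice, with -0.22 (adjusted p = 1). The direct test of the difference passed for none of them. A second, dimmer probe set of Cox4i1 had the opposite signs, with 0.13 in control and -0.12 in null mice.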

How the results depend on the processing

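No member passed in any of the 9 comparisons under any alternative run. Of 912 values of named members under alternatives, 910 kept their direction and their side of the threshold. Atp5d in αCD3 cells, Med23flox/flox minus Lck-Cre, became 0.06 with the mean of its probe sets, of which those not used here had 0.38, -0.23, 0.63 and -0.04. Ndufa12 in αCD3 cells, null minus Lck-Cre, became -0.06 with both controls as 1 group. That setting compares the null with the mean of both control genotypes, and the Ndufa12 difference from Med23flox/flox was itself below 0.

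Member medians were -0.03 (mock, null minus Med23flox/flox) with a filter of 200, and with scaling by the median 0.11 (αCD3, null minus Med23flox/flox) and -0.07 (αCD3, Med23flox/flox minus Lck-Cre). With a mouse left out they ranged from -0.05 to 0.01 (induction in control mice), -0.01 to 0.11 (induction in null mice), -0.01 to 0.12 (difference in induction), 0.01 to 0.07 (αCD3, null minus Lck-Cre), -0.05 to 0.02 (mock, null minus Lck-Cre), -0.06 to 0.02 (mock, null minus Med23flox/flox), -0.03 to 0.05 (mock, Med23flox/flox minus Lck-Cre), -0.02 to 0.13 (αCD3, null minus Med23flox/flox) and -0.10 to 0.02 (αCD3, Med23flox/flox minus Lck-Cre). Medians by complex moved beyond the spread between mice in 105 of 785 cases.

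Counts over all probe sets moved more. Those past the test in control induction, 14, became 27 with 100 added, 33 with a filter of 200, 4 with a variance trend, 0 with either control genotype alone and 3 to 9 with a mouse left out. In null induction, 3 became 1 with 16 added, without a filter, with quantile normalization or with a variance trend, 0 with either control alone and 0 or 1 with a mouse left out. In mock cells, null minus Lck-Cre, 0 became 3 with a variance trend. For the pairing of the arrays of a mouse, no replicate block gave 35 in control and 0 in null induction, and the mouse as a random block 50 and 0. Between genotypes, mice share only a number, same-numbered mice correlated at -0.011 to 0.116, and a replicate block changed no call. With 2 mice per genotype, the 95% interval of a genotype difference reached 0.48 (mock) and 0.56 (αCD3) to each side on the log2 scale for a typical member.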
